A study of Mus musculus with 20 samples.

Results

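Genes that mark regulatory T cells were followed in mouse mammary tumors with and without knockdown of *Rnaseh2c*, which encodes a subunit of the enzyme RNase H2. The 8 genes were taken by symbol, namely *Foxp3*, *Ikzf2*, *Ikzf4*, *Tnfrsf4*, *Tnfrsf18*, *Tnfrsf9*, *Ccr8* and *Il10*, and all 8 were found among the 20188 genes of the tumor table. Tumors had grown from Mvt1 mouse mammary carcinoma cells placed in the mammary gland of FVB mice with an intact immune system, and are labelled day 30. The cells carried either a scramble control shRNA or sh4, a single shRNA against *Rnaseh2c*, under puromycin selection, so the knockdown was in the carcinoma cells and not in the host. Each group had 3 tumors, 1 from each of 3 injection experiments, and their mRNA was given as RPKM (reads scaled to gene length and to total reads). Total RNA of the same 2 cell lines in culture, 3 plates of each, was given as FPKM (the same scaling for fragments) and supplied the level of each gene where no T cells are present.

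Regulatory T cells are the T cells that restrain other immune cells and keep them from attacking the body's own tissue. The transcription factor FOXP3 defines them, and the Ikaros family members Helios and Eos, encoded by *Ikzf2* and *Ikzf4*, work beside it. On their surface they carry high amounts of costimulatory receptors of the TNF receptor family and, in tumors, the chemokine receptor CCR8, and one of their secreted products is the cytokine IL-10. Most of these genes are shared with other cells: conventional T cells induce *Tnfrsf4*, *Tnfrsf18* and *Tnfrsf9* on activation, and macrophages and B cells can make IL-10.

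The receptors OX40 and GITR, encoded by *Tnfrsf4* and *Tnfrsf18*, were 2.11-fold and 1.81-fold higher in sh4 tumors by their means, without overlap between the groups. 4-1BB, encoded by *Tnfrsf9*, was lower, without overlap in the values as deposited but with overlap under both other scalings. *Foxp3* itself was higher in sh4 than in scramble tumors of the same experiment in all 3 experiments, but the groups overlapped. *Ikzf2*, *Ikzf4*, *Ccr8* and *Il10* were near or under 1 RPKM and overlapped as well. None of the members passed limma over all genes, nor did any other gene of the tumor table: 0 of 13487 genes tested (0%) had an adjusted p under 0.05, with 291 higher and 273 lower at an unadjusted p under 0.05 and a smallest adjusted p of 0.693.

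The promoters of the 4 members with the highest tumor levels are shown because 3 of these genes differed without overlap and the fourth defines the cell type. Each window runs from 250 bases before to 50 bases after a RefSeq start site on GRCm38.p6, plus strand, 5′ to 3′. *Tnfrsf4* is at chr4:156013445-156013744, *Tnfrsf18* at chr4:156026072-156026371, *Tnfrsf9* (the first of its 2 windows) at chr4:150919905-150920204 and *Foxp3* (the first of its 2 windows) at chrX:7579426-7579725. Capitals mark matches, on either strand, to 5 motifs.
Tnfrsf4: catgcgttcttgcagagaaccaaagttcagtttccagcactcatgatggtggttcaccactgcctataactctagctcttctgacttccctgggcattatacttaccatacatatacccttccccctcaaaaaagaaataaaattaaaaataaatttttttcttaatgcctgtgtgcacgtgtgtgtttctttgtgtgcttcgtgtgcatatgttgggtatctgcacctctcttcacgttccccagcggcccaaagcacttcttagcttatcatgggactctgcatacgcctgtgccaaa
Tnfrsf18: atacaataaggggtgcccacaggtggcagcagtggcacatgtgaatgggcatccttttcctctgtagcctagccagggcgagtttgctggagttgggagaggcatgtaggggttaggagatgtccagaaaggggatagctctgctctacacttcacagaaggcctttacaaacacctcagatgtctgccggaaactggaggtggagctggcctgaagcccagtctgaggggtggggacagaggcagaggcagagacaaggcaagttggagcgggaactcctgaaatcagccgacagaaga
Tnfrsf9: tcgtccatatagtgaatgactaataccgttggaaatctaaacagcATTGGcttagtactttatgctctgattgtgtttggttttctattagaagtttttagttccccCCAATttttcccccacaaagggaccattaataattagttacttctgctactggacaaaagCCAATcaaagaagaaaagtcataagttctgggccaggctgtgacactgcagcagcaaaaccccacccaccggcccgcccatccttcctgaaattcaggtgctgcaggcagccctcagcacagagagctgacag
Foxp3: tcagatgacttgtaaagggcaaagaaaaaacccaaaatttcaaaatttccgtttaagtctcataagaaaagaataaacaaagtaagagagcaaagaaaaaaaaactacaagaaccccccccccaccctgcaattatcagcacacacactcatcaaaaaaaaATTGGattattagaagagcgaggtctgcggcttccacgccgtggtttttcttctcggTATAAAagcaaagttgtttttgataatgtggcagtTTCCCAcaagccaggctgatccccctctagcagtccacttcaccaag

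The motifs were TGTTTAC for forkhead factors (in 3.65% of the 32851 RefSeq promoter windows), TGANTCA for AP-1 (7.81%), TGGGAA for Ikaros factors (25.6%), CCAAT (37.4%) and TATAAA (13.6%). The *Tnfrsf4* and *Tnfrsf18* windows held 0 matches. That of *Tnfrsf9* held 3 matches to CCAAT, and that of *Foxp3* held 1 each to CCAAT, to TATAAA and to the Ikaros motif. The second window of *Tnfrsf9* held 1 match each to the AP-1 and the Ikaros motif, and the second of *Foxp3* held 0. A match is a run of letters and not a measured binding site. The *Ccr8* window held 1 CCAAT match, and *Ikzf2*, *Ikzf4* and *Il10* were not matched to a window.

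OX40 is bound by OX40 ligand on antigen-presenting cells and sustains T cell survival. Its gene *Tnfrsf4* (chr4:155387952-155390721 of NCBIM37, the assembly also called mm9) was at 5.20, 3.68 and 4.68 RPKM in scramble tumors 1, 2 and 3 and at 7.78, 11.9 and 8.88 RPKM in sh4 tumors 1, 2 and 3. Every sh4 tumor lay above every scramble tumor, and sh4 tumor 2 was the highest while its partner from the same experiment was the lowest. The group means were 4.52 ± 0.771 and 9.52 ± 2.13 RPKM (SD, n = 3 each). On the log2(RPKM + 0.5) scale, which understates differences of low genes, the fold change from limma was 0.99 with a standard error of 0.23 (adjusted p = 0.991). The unadjusted p was 0.00291 by limma and 0.1 by the exact two-sided permutation test, the smallest that 3 tumors against 3 allow. Within experiments the difference was 0.54, 1.57 and 0.86, and with any 1 tumor left out it ranged from 0.82 to 1.11. *Tnfrsf4* was also among the molecules that the study's pathway analysis picked from these tumors, so its direction is not independent evidence.

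GITR, like OX40, is a costimulatory receptor that regulatory T cells carry at rest. *Tnfrsf18* (chr4:155400273-155403004) lies 9551 bases beyond *Tnfrsf4* on the same strand. It was at 4.81, 4.22 and 4.12 RPKM in scramble tumors 1, 2 and 3 and at 6.40, 9.09 and 8.33 RPKM in the corresponding sh4 tumors. Again all sh4 values were above all scramble values, and the 3 scramble tumors were close to one another. Means of 4.39 ± 0.372 and 7.94 ± 1.39 RPKM (SD, n = 3 each) stood 1.81-fold apart. The log2 fold change was 0.78 (standard error 0.21, limma p = 0.00573, adjusted p = 0.995, exact permutation p = 0.1). The difference was 0.38, 1.02 and 0.93 within experiments and 0.68 to 0.92 with 1 tumor left out. Of the exonic bases of *Tnfrsf18*, 27.2% are shared with *Gm16008*, a noncoding transcript on the opposite strand. Whether counting used strand is not stated, and reads of the 2 genes cannot be told apart. *Tnfrsf4* shares no exonic bases with another gene. Over the 6 tumors the 2 receptor genes had a Pearson correlation of 0.97, given as a description over tumors that also share group and library depth.

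4-1BB is a costimulatory receptor of activated T cells and NK cells, and is carried by activated regulatory T cells. *Tnfrsf9* (chr4:150288671-150320211) ran opposite to the other receptors, at 8.22, 8.91 and 7.48 RPKM in scramble tumors 1, 2 and 3 and at 6.40, 6.05 and 5.56 RPKM in sh4 tumors 1, 2 and 3. All sh4 tumors were below all scramble tumors, and both groups were narrow. The means were 8.20 ± 0.714 and 6.0 ± 0.424 RPKM (SD, n = 3 each), a ratio of 0.732, and the log2 fold change was -0.42 (standard error 0.18, limma p = 0.0485, adjusted p = 0.995, exact permutation p = 0.1). It was -0.34, -0.52 and -0.40 within experiments and -0.48 to -0.36 with 1 tumor left out. With median-ratio scaling of the libraries the groups overlapped, since sh4 tumor 2 at 6.97 then exceeded scramble tumor 3 at 6.85 RPKM, and with quantile normalization these were 7.23 and 6.82 RPKM. *Tnfrsf4* and *Tnfrsf18* did not overlap under either. Over the 6 tumors *Tnfrsf9* correlated with *Tnfrsf4* at -0.91 and with *Tnfrsf18* at -0.90, again as a description.

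**Figure D1:**
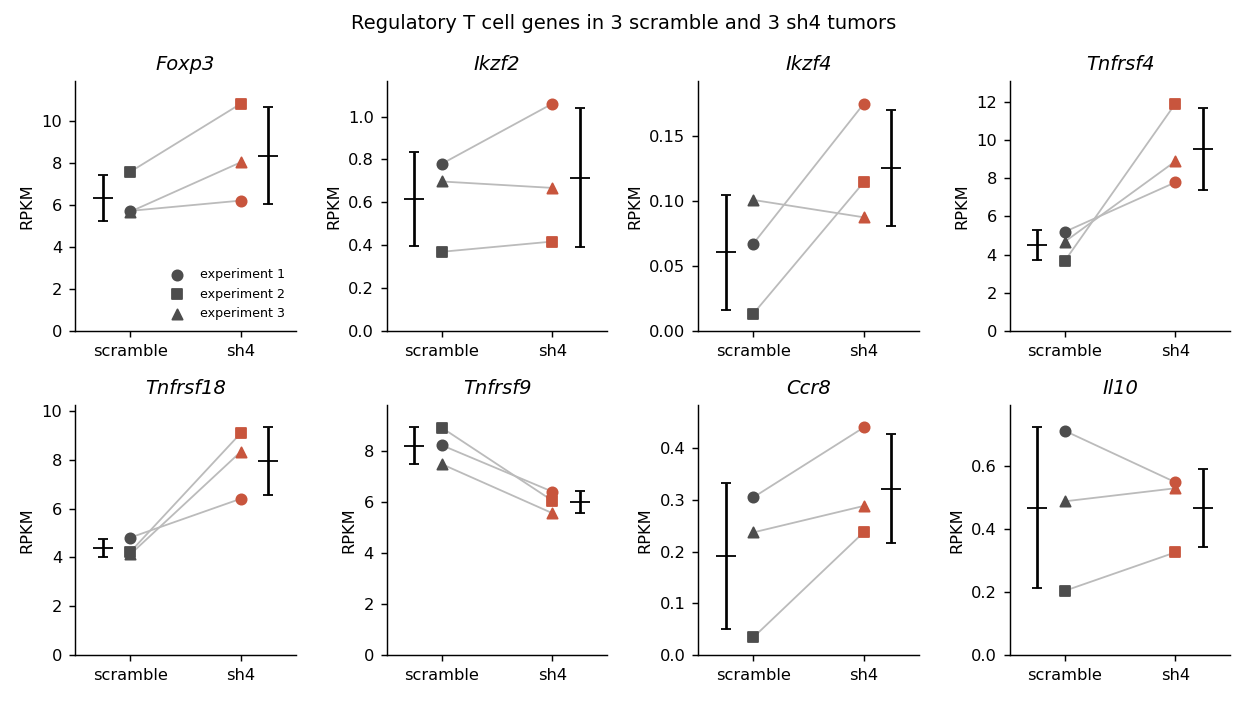
RPKM of the 8 genes in each tumor (vertical axes from 0), with gray points for scramble and red for sh4, lines joining the tumors of 1 experiment, and bars for the mean and SD of 3 tumors. *Tnfrsf4* and *Tnfrsf18* lie wholly higher and *Tnfrsf9* wholly lower in sh4 tumors (the last with overlap under other scalings), and the other 5 genes overlap.

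*Foxp3* (chrX:7156802-7172369), the defining gene of the lineage, was at 5.71, 7.57 and 5.67 RPKM in scramble tumors 1, 2 and 3 and at 6.20, 10.8 and 8.02 RPKM in sh4 tumors 1, 2 and 3. The sh4 value was the higher in each experiment, although scramble tumor 2 exceeded sh4 tumor 1. With means of 6.32 ± 1.08 and 8.34 ± 2.31 RPKM (SD, n = 3 each), the log2 fold change was 0.35 (standard error 0.25, limma p = 0.192, adjusted p = 0.995, exact permutation p = 0.2). Within experiments it was 0.11, 0.49 and 0.46, and leaving out 1 tumor gave 0.16 to 0.54.

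A part of the *Foxp3* value is measured in sequence that other genes also cover. Of its 3953 exonic bases in GENCODE vM1, 590 (14.9%) are shared with *Ccdc22*, a gene on the opposite strand that encodes a coiled-coil protein of endosomal sorting. Counted gene by gene, 373 are shared with *Ppp1r3f*, also on the opposite strand, and 267 with *4930524L23Rik* on the same strand. Whether these bases are partly the same as the 590 was not counted. *Ccdc22* was at 10.5, 15.3 and 10.8 RPKM in scramble and 10.1, 16.9 and 14.2 RPKM in sh4 tumors. Both genes were highest in the tumors of experiment 2 within each group, and their correlation over the 6 tumors was 0.92. This was rank 179 among the 10722 genes compared with *Foxp3*, and *Sdf4*, a gene that does not overlap it, reached 0.93. *Foxp3* divided by *Ccdc22* was 0.546, 0.494 and 0.524 in scramble tumors and 0.613, 0.637 and 0.563 in sh4 tumors. This ratio did not overlap between the groups, with means of 0.521 ± 0.0259 and 0.604 ± 0.0381 (SD, n = 3 each) and a log2 difference of 0.21 (exact permutation p = 0.1).

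The same ratio could be taken in cultured cells, which lack T cells. *Foxp3* was listed there at 0.757, 0.763 and 0.827 FPKM in scramble plates 1, 2 and 3 and at 0.827, 0.821 and 0.834 FPKM in sh4 plates 1, 2 and 3, whereas *Cd3d*, *Cd3e*, *Cd3g* and *Cd2* were at 0 in all 6 libraries. The 11 T cell genes used further on summed to 1.64 to 2.02 FPKM in scramble and 1.5 to 1.8 FPKM in sh4 cells, most of it *Cd247*, and 4 of 11 were at 0 throughout. Its ratio to *Ccdc22* was 0.526, 0.506 and 0.368 in scramble and 0.566, 0.609 and 0.602 in sh4 cells, close to the ratios in tumors and likewise higher in sh4 without overlap (exact permutation p = 0.1). In libraries without *Cd3d*, *Cd3e* or *Cd3g*, then, *Foxp3* stood at a similar share of *Ccdc22* as in tumors, on tables whose gene lengths may differ. How much of the tumor value of *Foxp3* comes from reads of *Ccdc22* was not tested, and without stated strand use the reads cannot be told apart.

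**Figure D2:**
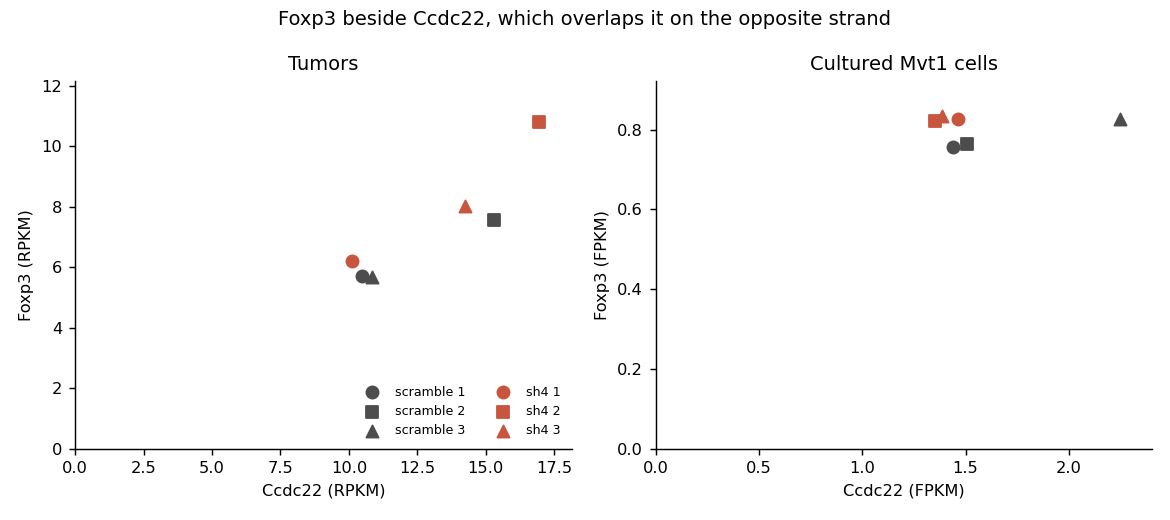
*Foxp3* against *Ccdc22* in 6 tumors (left, RPKM) and 6 cultured cell libraries (right, FPKM), axes from 0, gray for scramble and red for sh4, with the marker shape giving the experiment or plate. The ratio spans 0.494 to 0.637 in tumors and 0.368 to 0.609 in cells.

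The genes whose pattern over the 6 tumors was most like that of *Foxp3*, by Pearson correlation among the 10722 genes that averaged 1 RPKM or more, were *Rpl36al*, *Zbtb8os*, *Fkbpl*, *Lsm7* and *Pth1r*, at 0.99 each. Among T cell genes, *Cd3d* had 0.93, *Ctla4* 0.15 and *Cd4* -0.10. The libraries also differed in how transcripts under 1000 bases stood against those over 4000 bases, by -0.21, 0.31 and -0.30 on the log2 scale in scramble tumors and -0.37, 0.42 and 0.06 in sh4 tumors. *Foxp3* correlated with this index at 0.89, *Ikzf2* at -0.92 and *Il10* at -0.77, against 0.25 for *Tnfrsf4*, 0.39 for *Tnfrsf18* and -0.07 for *Tnfrsf9*. These correlations are descriptions over 6 libraries. With the index as a covariate the log2 fold change of *Foxp3* went from 0.35 to 0.27, that of *Ikzf2* from 0.11 to 0.20 and that of *Il10* from 0.03 to 0.10. *Tnfrsf4*, *Tnfrsf18* and *Tnfrsf9* were at 0.97, 0.74 and -0.43 in that fit, near their values without it, and 0 genes were called.

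Helios is carried by most regulatory T cells that arise in the thymus. *Ikzf2* (chr1:69577788-69732534) was at 0.780, 0.370 and 0.697 RPKM in scramble tumors 1, 2 and 3 and 1.06, 0.418 and 0.668 RPKM in sh4 tumors 1, 2 and 3. Both tumors of experiment 2 were low, and the groups overlapped throughout. The log2 fold change was 0.11 (standard error 0.25, limma adjusted p = 0.997). It was -0.06 without scramble tumor 2 and -0.09 without sh4 tumor 1, so its sign turned on 1 tumor. Cultured cells listed *Ikzf2* at 0.616 to 0.838 FPKM, about the level in tumors.

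Eos acts as a partner of FOXP3 in gene silencing. *Ikzf4* (chr10:128067899-128083047) was the lowest member, at 0.0673, 0.0135 and 0.101 RPKM in scramble and 0.175, 0.115 and 0.0876 RPKM in sh4 tumors. Its mean of 0.0931 RPKM missed the minimum of 0.1, so limma did not test it. The exact permutation test gave p = 0.2, and scramble tumor 3 was above sh4 tumor 3. Of the other Ikaros family genes *Ikzf1*, *Ikzf3* and *Ikzf5*, 2 were positive and 1 negative (log2 fold changes of 0.10, 0.38 and -0.20), 0 were called and 0 did not overlap. Of all genes tested, 42.6% were positive.

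CCR8 is a receptor by which regulatory T cells in tumors follow the chemokines CCL1 and, in the mouse, CCL8. *Ccr8* (chr9:120001251-120004024) was at 0.305, 0.0339 and 0.237 RPKM in scramble and 0.440, 0.237 and 0.288 RPKM in sh4 tumors. In each experiment the sh4 tumor was the higher, yet the groups overlapped and scramble tumor 2 lay far under the rest. The log2 fold change was 0.26 (standard error 0.19, adjusted p = 0.995 by limma) and 0.09 without scramble tumor 2. With a pseudocount of 0.1 it was 0.65. *Il10* (chr1:132916422-132921551) was at 0.714, 0.204 and 0.489 RPKM in scramble and 0.550, 0.326 and 0.531 RPKM in sh4 tumors. The group means of *Il10* were 0.469 RPKM in both groups, and its log2 fold change of 0.03 (standard error 0.23, adjusted p = 0.997) turned negative without scramble tumor 2 (-0.19), sh4 tumor 1 (-0.03) or sh4 tumor 3 (-0.02).

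The precision of the low members can be read from the steps of their values. Within 0.001 of a whole number, every tumor value of a member was a multiple of 1 common step after allowing for steps that differed by at most 0.239% between libraries. In the smallest whole numbers that fit, *Ccr8* was at 18, 2 and 14 steps in scramble and 26, 14 and 17 in sh4 tumors. *Ikzf4* was at 10, 2 and 15 against 26, 17 and 13 steps, and *Il10* at 35, 10 and 24 against 27, 16 and 26. If a step is 1 read, these genes rest on few reads, and the number of reads behind a step is unknown. The higher members had larger numbers of steps, from 193 to 624 for *Tnfrsf4*, 222 to 489 for *Tnfrsf18*, 429 to 687 for *Tnfrsf9* and 773 to 1469 for *Foxp3*.

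Across members, *Foxp3*, *Tnfrsf9*, *Tnfrsf4* and *Tnfrsf18* averaged 7.33 ± 1.96, 7.10 ± 1.31, 7.02 ± 3.09 and 6.16 ± 2.15 RPKM over the 6 tumors (SD), a scale that is per length. Their order was not the same in the 2 groups. *Foxp3* exceeded *Tnfrsf9* in 2 of 6 tumors, both of them sh4, and *Tnfrsf9* exceeded *Tnfrsf4* in 3 of 6, all of them scramble. *Tnfrsf18* was above *Ikzf2* in all 6 tumors, and *Ikzf2*, *Il10*, *Ccr8* and *Ikzf4*, with means of 0.665, 0.469, 0.257 and 0.0931 RPKM, kept that order in 6 of 6.

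Of the 7 members tested by limma, 6 were higher and 1 lower in sh4 tumors by the sign of the log2 fold change, where 42.6% of all genes tested had a positive one. Their median was 0.26, against -0.04 over all genes. Past an unadjusted 0.05 were 2 members on the higher and 1 on the lower side, where 2.16% of genes were higher and 2.02% lower. Without overlap, 2 members were higher and 1 lower, against 4.19% and 4.98% of all genes. These counts describe 7 genes chosen together, and a neighboring pair makes up both of the higher ones.

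The members were then set against T cell genes in general, since the mean of these was higher in sh4 tumors. A list of 11 T cell genes (*Cd3d*, *Cd3e*, *Cd3g*, *Cd247*, *Cd2*, *Cd5*, *Cd6*, *Cd28*, *Lck*, *Lat* and *Zap70*) had a mean log2(RPKM + 0.5) of 1.59, 1.38 and 1.79 in scramble and 2.25, 2.46 and 2.37 in sh4 tumors, 0.77 higher in sh4 without overlap (exact permutation p = 0.1). Of the 11 genes, 10 were positive and 8 higher without overlap, against 42.6% and 4.19% of all genes, and 0 were called. *Cd3e* and *Cd247* overlapped, at log2 fold changes of 0.57 and 0.24, and *Cd28* was at -0.17. In bulk tumors, fewer cells of a type and less RNA per cell cannot be told apart. Relative to the mean of the 11 genes, *Tnfrsf18* differed by 0.01 (exact permutation p = 1) and *Tnfrsf4* by 0.22 (p = 0.3), both with overlap. Leaving out 1 tumor gave -0.13 to 0.09 for *Tnfrsf18* and 0.10 to 0.31 for *Tnfrsf4*, and against *Cd3d* alone the values were -0.44 and -0.23. With T cell genes of transcripts under 2000 bases as the reference they were -0.25 and -0.04, and with the longer ones 0.22 and 0.43. A difference of these 2 receptors from T cell genes in general was therefore not detectable in 3 tumors a group.

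*Tnfrsf9* relative to the T cell genes was 1.53, 1.85 and 1.21 in scramble and 0.54, 0.25 and 0.23 in sh4 tumors. The groups did not overlap and differed by -1.19 on the log2 scale (exact permutation p = 0.1), with -1.35 to -1.03 when 1 tumor was left out. The reference itself was 0.77 higher in sh4 tumors, so a gene with no difference of its own also comes out lower here. How many other genes do so was not counted. *Foxp3* relative to the same T cell genes was 1.04, 1.63 and 0.84 in scramble and 0.50, 1.04 and 0.72 in sh4 tumors, a difference of -0.42 with overlap (exact permutation p = 0.2). It ranged from -0.58 to -0.19 with 1 tumor left out, the last without scramble tumor 2. Against this 11-gene mean it was lower in sh4 in all 3 experiments, by -0.55, -0.59 and -0.12, while *Foxp3* taken alone was higher in all 3. The sign in experiment 3 depended on the reference, since *Foxp3* alone differed there by 0.46, *Cd3e* by 0.03 and *Cd4* by 0.08. Against *Cd3d* alone the group difference was -0.87, and against *Cd3e* or *Cd4* alone -0.21 each. With T cell genes of transcripts under 2000 bases it was -0.67 (exact permutation p = 0.1), and with the longer ones -0.21 (p = 0.6).

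For *Ikzf2*, *Ikzf4*, *Ccr8* and *Il10* the same subtraction gave -0.66, -0.61, -0.51 and -0.74 (exact permutation p = 0.1 each). The pseudocount presses the own differences of these low genes toward 0, so that a negative value follows from it in part, and no direction is read from these. With a pseudocount of 0.1 the groups overlapped for all 4 (exact permutation p = 0.3, 0.2, 0.8 and 0.2), and they did so with *Cd3d* alone as the reference (p = 0.2 each). The means of *Ikzf4* and *Ccr8* in RPKM were 2.07-fold and 1.68-fold higher in sh4 tumors.

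**Figure D3:**
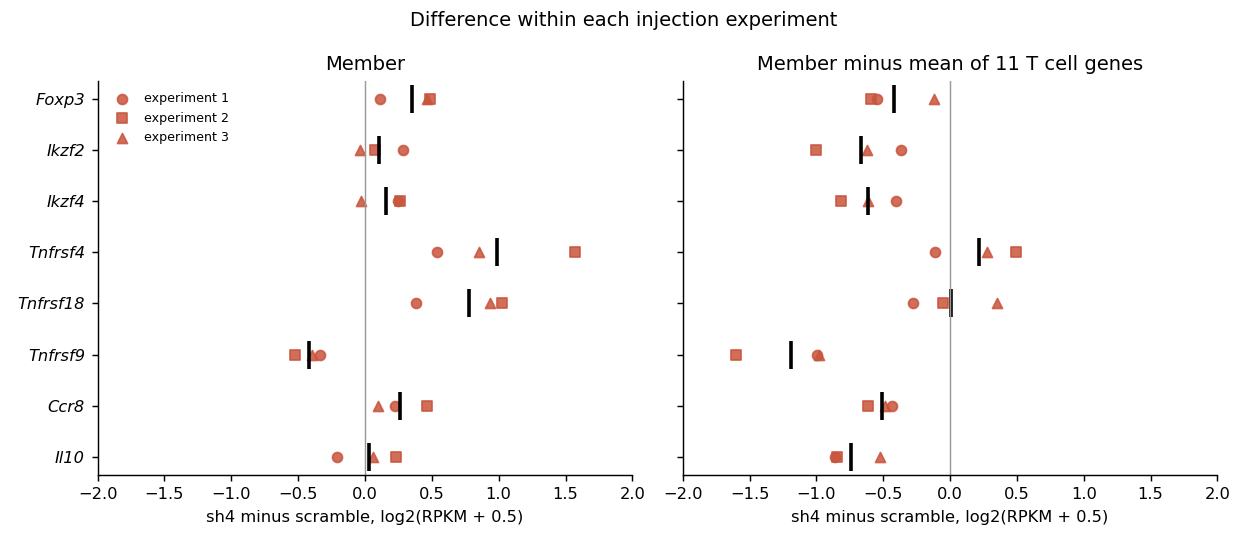
Difference of log2(RPKM + 0.5), sh4 minus scramble, within each of 3 experiments (points) with the mean (black bars), for each gene (left) and after subtracting the mean of 11 T cell genes (right). *Tnfrsf4* and *Tnfrsf18* are at 0.99 and 0.78 on the left and at 0.22 and 0.01 on the right, and *Tnfrsf9* is at -0.42 and -1.19.

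Other genes that regulatory T cells use were mixed. Of 23 listed for this purpose, 21 were in the tumor table and 20 were tested, and 12 had positive and 8 negative log2 fold changes with a median of 0.09. By limma 0 were called, 4 passed an unadjusted 0.05 on the higher and 0 on the lower side, and 3 were higher without overlap. Of all genes tested in tumors, 42.6% were positive, 2.16% higher and 2.02% lower at that p, and 4.19% higher without overlap. *Ctla4*, an inhibitory receptor that regulatory T cells hold at high amounts, was at 3.39, 0.969 and 3.68 RPKM in scramble and 6.25, 5.74 and 6.22 RPKM in sh4 tumors. The sh4 tumors were alike while scramble tumor 2 was low (log2 fold change 1.19, standard error 0.40, adjusted p = 0.995).

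*Icos*, a costimulatory receptor of activated T cells, was at 1.63, 0.859 and 1.27 RPKM in scramble and 3.46, 3.05 and 2.15 RPKM in sh4 tumors, with a log2 fold change of 0.96 (standard error 0.26, adjusted p = 0.995). *Cd83*, a marker of mature dendritic cells that regulatory T cells can also carry, was at 15.2, 19.7 and 17.6 RPKM against 25.1, 27.3 and 24.3 RPKM. *Il2ra*, the α chain of the IL-2 receptor, overlapped between groups, at 1.11, 0.554 and 0.812 RPKM in scramble and 1.88, 1.61 and 1.00 RPKM in sh4 tumors (log2 fold change 0.59, adjusted p = 0.995). These 3 genes were higher in the sh4 tumor of every experiment. *Gpr83*, a receptor enriched on regulatory T cells and picked here after its values were seen, was at 0, 0 and 1 steps in scramble and 7, 4 and 5 steps in sh4 tumors, too low to be tested.

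**Figure D4:**
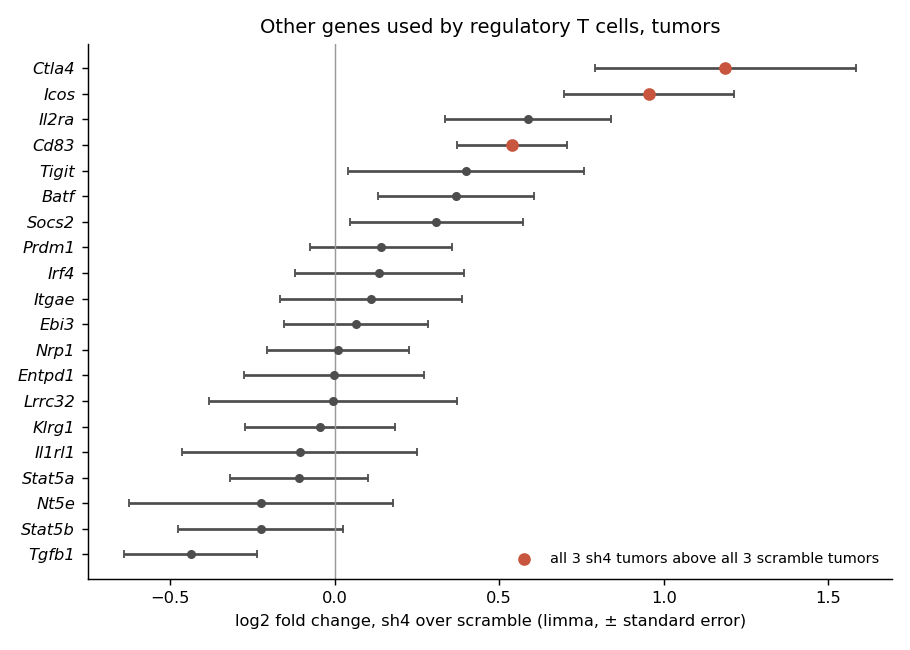
Log2 fold change, sh4 over scramble tumors, of the 20 tested other genes used by regulatory T cells (limma, bars are standard errors, 3 tumors a group). Red points mark *Ctla4*, *Icos* and *Cd83*, whose sh4 tumors all lie above the scramble tumors, and 8 genes lie on the negative side.

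The coreceptors of the 2 main T cell classes were also measured. *Cd4*, carried by most regulatory T cells, was at 3.78, 1.93 and 5.15 RPKM in scramble and 5.81, 4.54 and 5.48 RPKM in sh4 tumors, with overlap and a log2 fold change of 0.57 (standard error 0.32). *Cd8a* and *Cd8b1* of cytotoxic T cells had log2 fold changes of 1.36 and 1.46 without overlap, each with a limma adjusted p of 0.991. The difference between *Cd4* and *Cd8a* was not tested.

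Ligands and partners of the members were mixed. Of all genes tested, 42.6% were positive and 4.19% were higher without overlap. Of 10 partners, 4 were positive and 6 negative by limma, with 0 called and 1 higher without overlap. That gene was *Ccl1*, a chemokine that binds CCR8, at 2.01, 1.58 and 1.24 RPKM in scramble and 2.72, 4.59 and 5.22 RPKM in sh4 tumors. All sh4 tumors were above all scramble tumors (log2 fold change 1.12, standard error 0.28, limma p = 0.00433, adjusted p = 0.991, exact permutation p = 0.1). *Ccl8*, the other CCR8 ligand, was abundant, at means of 982 ± 303 and 1182 ± 96.8 RPKM (SD, n = 3 each) with overlap.

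The ligands of the 3 TNF receptors had negative log2 fold changes with overlap, of -0.32 for *Tnfsf4* (OX40 ligand), -0.49 for *Tnfsf18* (GITR ligand) and -0.40 for *Tnfsf9* (4-1BB ligand). Single tumors decided 2 of these signs, since *Tnfsf18* was at 0.03 without scramble tumor 1 and *Tnfsf4* at 0.07 without sh4 tumor 2. The IL-10 receptor chains *Il10ra* and *Il10rb* were at -0.09 and -0.26. For the IL-2 system on which regulatory T cells depend, *Il2*, *Il2rb* and *Il2rg* were at 0.07, 0.38 and -0.09.

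In cultured Mvt1 cells 4 of the 8 members passed the minimum, 0 were called and 0 separated the groups, where 1.28% of 21106 genes were called and 13.6% were higher and 13.8% lower without overlap. Of these 4 members 1 was positive, against 49.6% of all genes. *Tnfrsf4* was at 0.343 to 0.647 FPKM and *Tnfrsf18* at 0.263 to 0.859 FPKM, with log2 fold changes of -0.24 and -0.18 (adjusted p = 0.302 and 0.676 by limma), opposite in sign to the tumors. For *Tnfrsf18* the sign did not hold without scramble plate 1 (0.0028). *Tnfrsf9* was at 0.0133 to 0.0671 FPKM, *Ikzf4* was listed at 0 in 5 of 6 libraries, *Il10* in 4 of 6 and *Ccr8* in 6 of 6.

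Tumor cells in culture did hold transcripts of ligands of these receptors, while the proteins were not measured here. *Tnfsf4* was at means of 15.5 ± 1.70 FPKM in scramble and 13.9 ± 0.875 FPKM in sh4 cells and *Tnfsf9* at 6.94 ± 0.153 and 7.02 ± 0.472 FPKM (SD, n = 3 each). Of 10 partners 8 were tested in cells and 1 was called. *Il2rg*, the common γ chain of the IL-2 receptor family, fell from 5.45, 5.37 and 5.62 FPKM in scramble plates to 1.76, 1.87 and 1.89 FPKM in sh4 plates. Its log2 fold change was -1.35 (standard error 0.06, limma adjusted p = 0.00198), and it was called in 14 of 15 alternatives, the exception being the replicate block (adjusted p = 0.0908, in a range from 0.000578). In tumors *Il2rg* was at 36.9 to 75.7 RPKM with overlap.

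**Figure D5:**
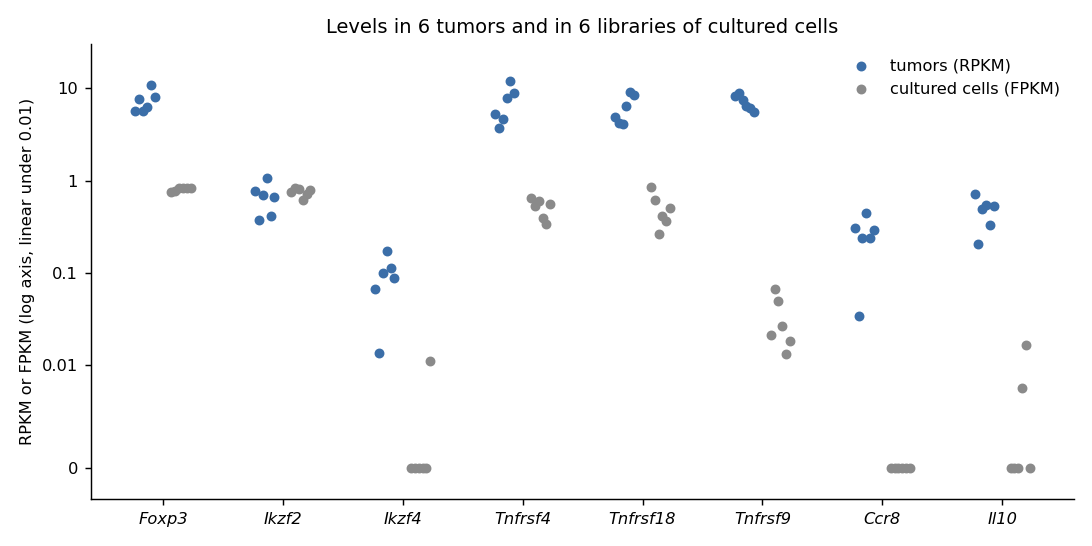
Level of each gene in 6 tumors (blue, RPKM) and 6 libraries of cultured cells (gray, FPKM) on a log axis that is linear under 0.01. *Ikzf2* is alike in both, *Foxp3*, *Tnfrsf4* and *Tnfrsf18* lie lower in cells, and *Ccr8* is listed at 0 in every cell library. The tables were normalized separately.

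The 2 tables were scaled apart, so a level set across them is a rough guide. On that footing the mean of *Foxp3* was 9.11, of *Tnfrsf18* 12.3, of *Tnfrsf4* 13.7 and of *Tnfrsf9* 217 times as high in tumors as in cells, and that of *Ikzf2* 0.886 times. Over the 10831 genes that averaged 0.1 or more in both tables the median ratio was 1.45, and 8.41% of them had a ratio at least that of *Foxp3*. *Ccdc22* was at 8.30 times, so ratios of this size are not particular to the members. The knockdown target *Rnaseh2c* was at 26.9, 52.0 and 25.9 RPKM in scramble and 10.2, 22.4 and 19.8 RPKM in sh4 tumors, lower without overlap. In cells it was at 5.83, 7.06 and 5.34 FPKM in scramble and 3.19, 5.36 and 4.28 FPKM in sh4 plates, with overlap (limma adjusted p = 0.236). In tumors, by sign alone and with 0 genes of any list called, 10 of 11 T cell genes, 5 of 5 dendritic and 5 of 5 endothelial genes had positive log2 fold changes, and 0 of 5 adipocyte and 1 of 7 macrophage genes did. So did 2 of 2 B cell, 4 of 5 muscle, 3 of 5 NK and 3 of 5 epithelial genes tested, and 42.6% of all genes. At an unadjusted p under 0.05 were 8 T cell, 2 dendritic and 1 endothelial gene, all higher, and 0 genes of the other lists named. Over all genes 2.16% were higher and 2.02% lower at that p. The summed level of the 5 dendritic markers was 10.5 to 12.6 RPKM in scramble and 15.5 to 18.1 RPKM in sh4 tumors, that of 7 macrophage markers 676 to 764 and 699 to 939 RPKM, and that of 5 adipocyte markers 23.6 to 1666 and 34.4 to 227 RPKM, the last 2 lists with overlap. Most of the macrophage sum was *C1qa*, at 509 to 857 RPKM over the tumors, which was the 1 positive gene of that list. The muscle markers were uneven too, summing to 5.58 to 65.0 RPKM in scramble and 5.50 to 34.9 RPKM in sh4 tumors. Of these, *Acta1* was highest in scramble tumor 1, at 21.6 RPKM. The highest adipocyte value, 1514 RPKM, was that of *Fabp4* in scramble tumor 2, the tumor lowest in *Tnfrsf4*, *Ikzf2*, *Ikzf4*, *Ccr8* and *Il10*. The part of such tissue in the member values was not tested. Without scramble tumor 2 the log2 fold changes of *Tnfrsf4*, *Tnfrsf18* and *Tnfrsf9* were 0.86, 0.76 and -0.36.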

How the data were processed

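For tumors the authors deposited RPKM per gene symbol, from reads trimmed with Trimmomatic and placed by Tophat on mm9 and on transcripts of Ensembl v70. The methods name the Partek Genomics Suite for the analysis, and the program that made the gene values and its use of strand are not given in the sources used here. For cells the authors deposited FPKM per Ensembl gene or assembled locus; the submitters' processing notes list STAR 2.7 and TopHat2 2.1.0 without roles. Of the cell genes 32709 of 50667 matched a symbol in GENCODE vM1, which also gave gene coordinates, and assembled loci were left out. No read totals are given, so precision rests on the spread between libraries. RPKM summed to 399938 to 484868 per tumor and FPKM to 659082 to 864566 per cell library. None of 12 housekeeping genes was at 0 in the cells (0 values).

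After a log2(value + 0.5) transform, genes averaging 0.1 or more were kept, and groups were compared within each table by limma 3.58.1 (R 4.3.3, variance trend, two-sided, Benjamini-Hochberg over all genes tested, threshold 0.05). Single values were compared by exact two-sided permutation over the 20 splits (numpy 2.4.6, Python 3.11.15). The procedure was also run on simulated data, drawn gene by gene without differences shared within a library. Low genes were not among those changed there, and no result here rests on that run. Nothing beyond the design text says that the plates were separate cultures, so p-values in cells may measure technical spread. Tumor numbers pair the groups, since the labels give the same experiment to both; the correlations of their deviations were 0.138, 0.330 and -0.117. Cell plates share a number alone.

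The members and all gene lists were chosen with earlier results of these data known. Named in full were the 8 members, of each related list the 4 genes with the smallest tumor p and each ligand or receptor of a member, and the 5 genes most correlated with *Foxp3*. Alternatives were pseudocounts of 0.1 and 1, a minimum mean of 1 or none, median-ratio scaling, quantile normalization, no variance trend, the replicate block, leaving out each library and *Cd3d*, *Cd3e* or *Cd4* alone as the T cell reference. A transcript length covariate and T cell references split at 2000 bases were added after the data were seen. One gene of the T cell list is not reported here and was left out of every value of that list. Exome libraries were not analysed here.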

Additional observations from a re-analysis of the deposited data

How the results depend on the processing

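In tumors 0 genes were called in all 15 alternatives, with the experiment as a replicate block among them (0 called), and the block changed no call of a member. *Tnfrsf4*, *Tnfrsf18*, *Tnfrsf9*, *Foxp3* and *Ccr8* kept their direction in tumors in every alternative run. *Ikzf2* turned to -0.06 without scramble tumor 2 and -0.09 without sh4 tumor 1 (range leaving out 1 tumor -0.089 to 0.29), and *Il10* to -0.19, -0.03 and -0.02 without scramble tumor 2, sh4 tumor 1 and sh4 tumor 3 (range -0.19 to 0.21). In cells *Tnfrsf18* turned to 0.0028 without scramble plate 1 (range -0.41 to 0.0028) and to 0.0953 with the transcript length index as a covariate, an alternative chosen after seeing the data. The members not overlapping between groups numbered 3, where 4.19% of all genes were higher and 4.98% lower without overlap. With a tumor left out they numbered 3 to 4, but 2 against 3 tumors separate more easily. Median-ratio scaling or quantile normalization gave 2 and brought *Tnfrsf9* to overlap. The share over all genes was not counted in these alternatives, so their counts say little about the members. Relative to T cell genes 6 members were lower, 6 to 7 with a tumor left out, 7 with a pseudocount of 0.1, and 8 with *Cd3d* alone or with T cell genes of transcripts under 2000 bases (a reference added after seeing the data). The T cell reference itself was 0.77 higher in sh4 tumors, so an unchanged gene also counts as lower, and nothing about the members is read from this count. It includes *Ikzf2*, *Ikzf4*, *Ccr8* and *Il10*, whose values the pseudocount presses down. In cells 270 genes were called, against 77 with no filter, 408 with a mean of at least 1, 1223 with quantile normalization, 1045 with median-ratio scaling, 171 without the trend, 0 with the replicate block and 2 to 248 leaving out 1 library (2 without scramble plate 3). No member was among the calls of the main analysis. Where a count or sign moved, the cause was not tested. Low levels limit *Ikzf4*, *Ccr8* and *Il10*, and 3 tumors a group cannot give an exact p under 0.1.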
